A study of Mus musculus with 4 samples.

Results

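The genes described here are 54 transcripts of the response to broken DNA: Trp53, which encodes p53, with 24 of its targets, and 29 genes of damage signalling, 53BP1 function, end joining and homologous repair. They were chosen by name, and all 54 were found among the 18276 genes of the table. In the counts of targets below, Trp53 itself is included. Poly(A) RNA had been sequenced from CD115+ B220- CD3- Mac-1- osteoclast progenitors of fresh mouse bone marrow, on a mixed B6;129 background. All mice carried the Mx-1Cre driver, whose promoter responds to interferon and is not restricted to one blood lineage. In 2 libraries (Ptip_KO) both Ptip alleles were floxed (Ptip flox/flox Mx-1Cre), and in 2 libraries Ptip was wild type (WT Mx-1Cre, called WT). The design text calls the replicates independent, but the labels used here give no age, sex or inducer of the driver and do not say whether a library is 1 animal or a pool. All p-values therefore set group differences only against the spread between these 4 samples, in part shared across genes. That spread may be technical.

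Values are CPM, each gene's reads scaled by the authors to the library's total times a normalisation factor (its effective size). Libraries held 67592972 to 77773478 reads. Paxip1, the gene symbol of Ptip, was at 5.10 and 3.73 CPM in Ptip_KO and at 106 and 103 CPM in WT. Csf1r, which encodes CD115, was at 606 to 825 CPM, while the T cell gene Cd3e was at 0 to 0.190 CPM. Itgam, which encodes the Mac-1 chain gated against, was still at 35.1 to 42.1 CPM. Of the marker lists, 7 of 10 tested red cell genes, 5 of 7 tested macrophage genes and 1 of 10 neutrophil genes fell in Ptip_KO. Of 3 tested B cell genes, 1 (Cd79b) rose and 2 had a negative log2 fold change (list median −0.30). Over all tested genes, 2.43% were called higher and 3.86% lower. B cell markers summed to 803 and 758 CPM in Ptip_KO and to 1028 and 926 CPM in WT. The 5 T cell genes summed to 0.525 to 3.84 CPM. Red cell markers summed to 730 and 1001 CPM in Ptip_KO and to 1868 and 4411 CPM in WT, macrophage markers to 217 and 187 against 350 and 217 CPM, and neutrophil markers to 11385 and 12241 against 10068 and 14881 CPM. The part of these cells in the results below was not tested, and in bulk RNA fewer cells of a type and less RNA per cell cannot be told apart. WT replicate 2 had 298 CPM of the female-specific transcript Xist and the other 3 libraries at most 0.0814 CPM. The Y-linked gene Ddx3y was at 0.101 CPM in WT replicate 2, 69.1 CPM in WT replicate 1 and 89.6 and 82.1 CPM in Ptip_KO. By these genes WT held a female and a male library, while both Ptip_KO libraries were male. Eda2r is the single member on the X chromosome. The part of sex in the values of the members, on any chromosome, was not tested.

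p53 is a transcription factor held low by the ubiquitin ligase MDM2. When kinases such as ATM and ATR sense broken or stalled DNA, p53 is stabilised and raises genes that arrest the cell cycle, kill the cell, buffer stress or repair DNA. At a double-strand break, ATM phosphorylates histone H2AX and MDC1, the ligases RNF8 and RNF168 mark the chromatin, and 53BP1 binds there. 53BP1 then recruits RIF1 and PTIP, which protect the ends for end joining, while BRCA1 and CtIP favour resection and homologous recombination. PTIP is therefore a partner of 53BP1, and it also belongs to complexes that methylate histone H3.

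Promoter windows from RefSeq (GRCm38.p6, 250 bases before to 50 after the start) were available for 39 of the 54 members. Xpc and Exo1 were among the members without a window and were not searched. Both strands were searched for the single unit of the p53 element and for an E2F-type motif, TTTNNCGC. The p53 unit occurred in 11 of 18 target genes with a window (Trp53 among the 11), in 1 of 21 repair genes (Fanca) and in 9.55% of the 27025 genes with windows. A pair of units at most 13 bases apart, the full p53 element, was found in Cdkn1a alone among the members and in 0.0740% of all genes. The E2F-type motif occurred in 6 of 21 repair genes (Bard1, Brca2, Chek2, Mdc1, Topbp1 and Xrcc6), in 2 of 18 targets (Fas and Mdm2) and in 5.93% of all genes. These are letter matches, and no binding was measured in these samples. A gene can have several windows (32851 windows for 27025 genes), and it counted as matched if any of them matched. Of several windows, only those with the most matches are shown. The windows of 6 members show the contrast: Cdkn1a and Ccng1 with p53 units in capitals, Sesn2 and Trp53bp1 with none, and Mdc1 and Bard1 with the E2F-type motif in capitals. Sesn2 is shown because it fell in Ptip_KO, and Trp53bp1 because its product is the partner of PTIP.
Cdkn1a, chr17:29090729-29091028 (+ strand): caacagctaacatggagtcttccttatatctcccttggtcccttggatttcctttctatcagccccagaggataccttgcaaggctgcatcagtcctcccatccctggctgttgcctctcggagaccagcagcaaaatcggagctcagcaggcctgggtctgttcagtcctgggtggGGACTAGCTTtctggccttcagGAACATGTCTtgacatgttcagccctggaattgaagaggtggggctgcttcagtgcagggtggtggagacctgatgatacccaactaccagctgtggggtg
Ccng1, chr11:40755237-40755536 (- strand): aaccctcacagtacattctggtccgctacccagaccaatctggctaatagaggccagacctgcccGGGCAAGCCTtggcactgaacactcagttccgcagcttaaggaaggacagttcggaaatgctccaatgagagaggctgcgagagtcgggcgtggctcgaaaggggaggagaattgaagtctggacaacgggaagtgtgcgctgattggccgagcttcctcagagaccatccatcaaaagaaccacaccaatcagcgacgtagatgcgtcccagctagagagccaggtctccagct
Sesn2, chr4:132510407-132510706 (- strand): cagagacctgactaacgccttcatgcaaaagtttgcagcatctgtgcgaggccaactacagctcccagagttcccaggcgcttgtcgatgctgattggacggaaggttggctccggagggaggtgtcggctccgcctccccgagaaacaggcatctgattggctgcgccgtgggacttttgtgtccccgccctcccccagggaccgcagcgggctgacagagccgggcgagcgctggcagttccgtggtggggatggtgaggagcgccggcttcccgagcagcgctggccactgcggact
Trp53bp1, chr2:121271358-121271657 (- strand): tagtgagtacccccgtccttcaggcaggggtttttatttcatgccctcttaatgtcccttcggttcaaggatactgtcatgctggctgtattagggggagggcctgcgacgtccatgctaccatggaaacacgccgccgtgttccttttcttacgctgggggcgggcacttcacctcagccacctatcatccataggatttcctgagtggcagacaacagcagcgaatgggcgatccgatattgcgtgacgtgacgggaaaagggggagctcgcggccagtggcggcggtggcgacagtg
Mdc1, chr17:35841248-35841547 (+ strand): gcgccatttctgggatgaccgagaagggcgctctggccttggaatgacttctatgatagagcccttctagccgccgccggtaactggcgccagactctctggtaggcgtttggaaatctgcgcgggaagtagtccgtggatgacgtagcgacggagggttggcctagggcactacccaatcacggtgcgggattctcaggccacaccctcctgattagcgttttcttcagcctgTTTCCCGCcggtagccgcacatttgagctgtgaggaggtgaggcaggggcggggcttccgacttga
Bard1, chr1:71102923-71103222 (- strand): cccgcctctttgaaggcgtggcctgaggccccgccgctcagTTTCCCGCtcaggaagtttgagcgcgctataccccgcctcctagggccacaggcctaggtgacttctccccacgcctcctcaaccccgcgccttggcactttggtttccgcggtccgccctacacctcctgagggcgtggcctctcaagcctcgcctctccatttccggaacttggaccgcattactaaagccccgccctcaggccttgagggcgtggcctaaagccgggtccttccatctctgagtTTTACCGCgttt

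Few of these genes passed the test. Of 22 targets that passed the filter of 1 CPM in at least 2 libraries, 1 rose (Xpc) and 1 fell (Sesn2) in Ptip_KO, by limma on log2(CPM + 1) with a Benjamini-Hochberg adjusted p under 0.05. This is 9.09% of the tested targets, beside 6.29% of all 12357 tested genes (2.43% higher and 3.86% lower). By edgeR the same 2 targets were called, and by DESeq2 those and Ccng1 and Sesn1, beside 5.34% and 15.4% of all tested genes. At an unadjusted limma p under 0.05 there were 8 targets, 5 higher and 3 lower. Of 29 repair genes, all tested, 0 were called by limma or edgeR and 2 by DESeq2 (both lower), and 6 had an unadjusted limma p under 0.05 (1 higher, 5 lower), beside 23.8% of all tested genes. The median log2 fold change was 0.18 over the tested targets, −0.02 over the repair genes and 0.00 over all tested genes. Targets had a positive log2 fold change in 17 of 22 cases and repair genes in 11 of 29, beside 50.5% of all tested genes. The libraries of the groups did not overlap for 17 targets (12 higher, 5 lower in Ptip_KO) and for 16 repair genes (4 higher, 12 lower), beside 55.1% of all tested genes. The two-sided exact permutation test of 2 against 2 libraries cannot go below 0.333, so the calls rest on the variance that limma shares across genes.

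A missed threshold does not show equal levels, so the 95% interval of each difference was used to say what size of change remained possible. For 24 of 29 repair genes the interval lay inside a 1.5-fold change either way. The exceptions were Chek1, Trp53bp1, Xrcc5, Brca2 and Exo1. The same held for 11 of 22 targets and for 64.5% of all tested genes.

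**Figure D1:**
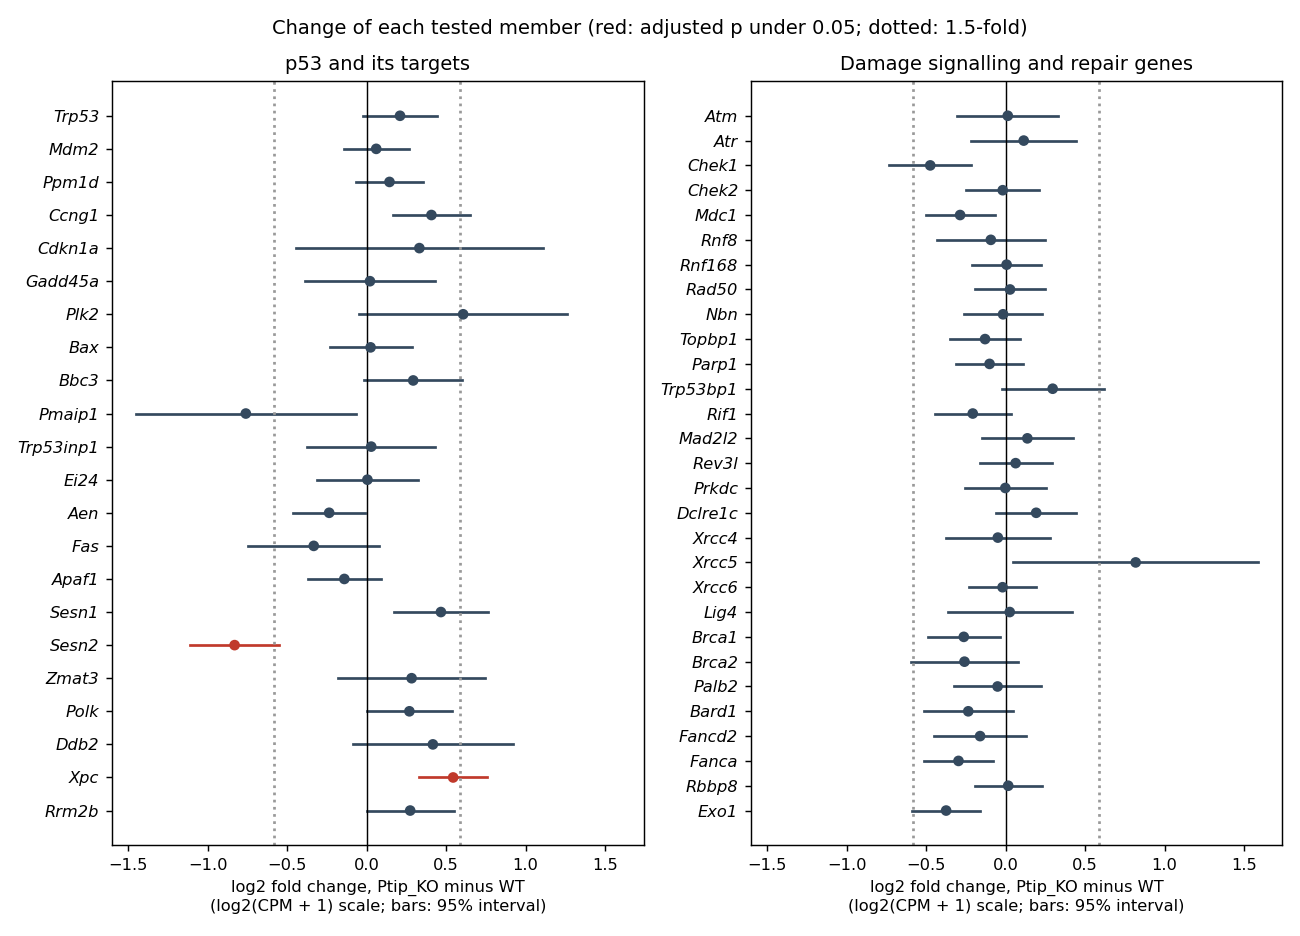
Log2 fold change (Ptip_KO minus WT, log2(CPM + 1) scale) of the 51 tested members on the x axis, with the 95% interval as a bar, p53 and its targets on the left and repair genes on the right; dotted lines mark 1.5-fold. Sesn2 (−0.83) and Xpc (0.54), in red, passed the adjusted threshold, and most repair genes lie within the dotted lines.

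None of the genes for p53 and its feedback loop passed the test by limma. Trp53 was at 86.6 and 95.6 CPM in Ptip_KO and at 80.7 and 76.4 CPM in WT. Both Ptip_KO libraries lay above both WT libraries, and the log2 fold change was 0.21 (95% interval −0.02 to 0.44; limma adjusted p = 0.244). Mdm2, the ligase that degrades p53 and is itself a p53 target, was at 65.9 and 67.98 CPM in Ptip_KO and at 63.3 and 65.0 CPM in WT. Its interval was among the narrowest of the targets (log2 −0.15 to 0.27). Ppm1d, the phosphatase WIP1 that switches the damage response off, was at 56.1 and 53.2 CPM in Ptip_KO and at 49.4 and 49.3 CPM in WT (limma adjusted p = 0.380). Ccng1, which encodes cyclin G1 and is a long-known p53 target, was at 149 and 151 CPM in Ptip_KO and at 121 and 106 CPM in WT. The groups did not overlap, and the log2 fold change of 0.41 (SE 0.0977) missed the threshold by limma (adjusted p = 0.0715) and by edgeR (0.0570) and passed it by DESeq2 (adjusted p = 0.00106). By limma it passed without WT replicate 1 (adjusted p = 0.0172) and when rescaled to a common sum (0.0374), and it ranged up to 0.298 without each of the other libraries.

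**Figure D2:**
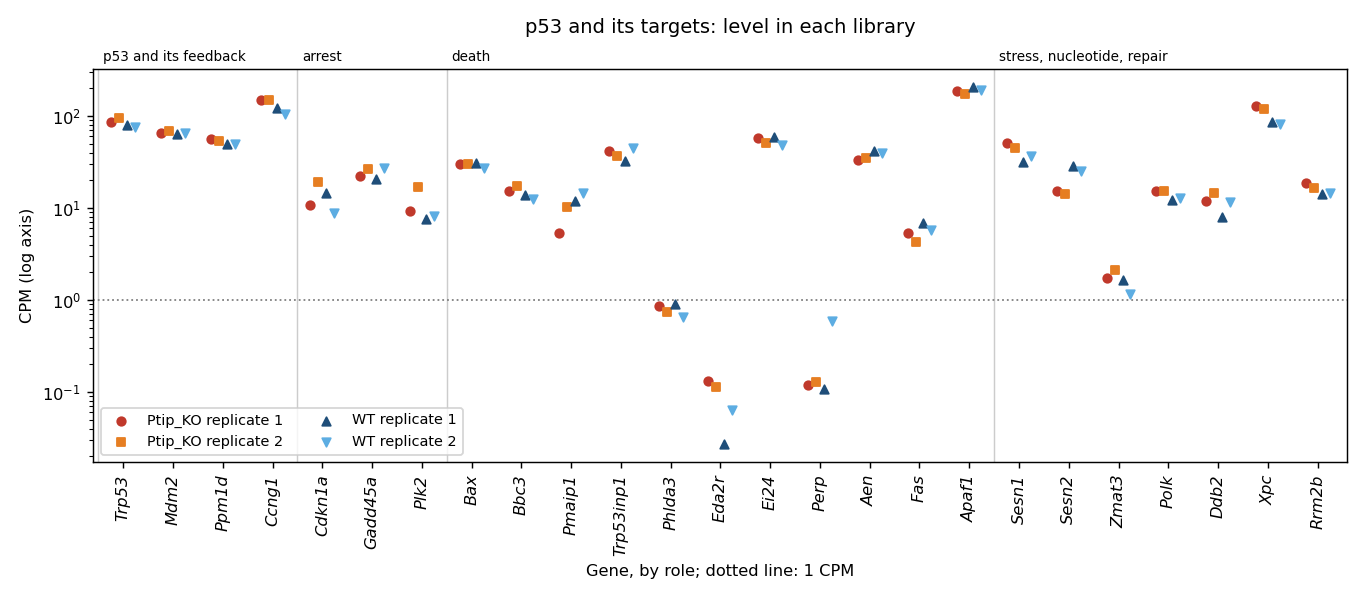
CPM (log axis) of Trp53 and 24 targets in each of the 4 libraries, grouped by role; red and orange points are Ptip_KO and blue points WT. Levels span from under 0.2 CPM for Eda2r to over 150 CPM for Apaf1, and the groups lie close together for most genes.

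Of the 3 arrest genes, 0 passed by limma, edgeR or DESeq2, and 0 with the limma p left unadjusted at 0.05. Cdkn1a, which encodes the cyclin-dependent kinase inhibitor p21 and is the best known arrest target, was at 10.9 and 19.0 CPM in Ptip_KO and at 14.4 and 8.79 CPM in WT. The highest library was Ptip_KO replicate 2 and the lowest WT replicate 2, with the other two in between, so the groups overlapped. Its log2 fold change of 0.33 had an interval of −0.44 to 1.11 (limma adjusted p = 0.579), and it was −0.04 without Ptip_KO replicate 2. Plk2, a polo-like kinase induced by p53, was at 9.22 and 16.8 CPM in Ptip_KO and at 7.56 and 8.18 CPM in WT. The groups did not overlap, and Ptip_KO replicate 1 lay much nearer to WT than Ptip_KO replicate 2 did (log2 fold change 0.61, limma adjusted p = 0.237). The log2 fold change of Plk2 was 1.01 without Ptip_KO replicate 1 (limma adjusted p = 0.0347) and 0.21 without Ptip_KO replicate 2 (0.775). Gadd45a, a growth arrest gene, was at 22.2 and 26.3 CPM in Ptip_KO and at 20.6 and 27.5 CPM in WT, with overlapping groups.

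The death genes did not move in one direction. Of 8 tested, 4 had a positive and 4 a negative log2 fold change, with a median of −0.07, and 0 passed by limma, edgeR or DESeq2, against 2 with the limma p left unadjusted at 0.05. Bax, the pore former of the outer mitochondrial membrane, was at 29.8 and 29.7 CPM in Ptip_KO and at 31.2 and 27.4 CPM in WT. Bbc3, which encodes PUMA, a BH3-only activator of BAX, was at 15.3 and 17.5 CPM in Ptip_KO and at 13.9 and 12.4 CPM in WT (limma adjusted p = 0.232). Pmaip1, which encodes NOXA, another BH3-only protein, went the other way, with 5.32 and 10.1 CPM in Ptip_KO and at 11.9 and 14.6 CPM in WT. Both Ptip_KO libraries lay below both WT libraries, but they differed 1.91-fold from each other; the log2 fold change was −0.76 (limma adjusted p = 0.176). It was −1.17 without Ptip_KO replicate 2 (limma adjusted p = 0.0248) and −0.35 without Ptip_KO replicate 1 (0.535). Aen, a nuclease that degrades DNA in dying cells, was at 33.3 and 35.4 CPM in Ptip_KO and at 41.2 and 40.0 CPM in WT, with an interval of log2 −0.46 to −0.01 (limma adjusted p = 0.193). The death receptor gene Fas (4.24 to 6.91 CPM) and the apoptosome gene Apaf1 (174 to 206 CPM) were lower in both Ptip_KO libraries than in both WT libraries, at limma adjusted p of 0.297 and 0.419. Trp53inp1 (32.8 to 44.6 CPM) and Ei24 (48.8 to 59.2 CPM) overlapped between groups.

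A trio of death-related targets fell under the filter and was not tested. Phlda3, an inhibitor of AKT, was at 0.867 and 0.742 CPM in Ptip_KO and at 0.909 and 0.647 CPM in WT. Perp, a membrane protein of desmosomes, was at 0.118 and 0.128 CPM in Ptip_KO and at 0.109 and 0.596 CPM in WT, where WT replicate 2 stood apart. Eda2r, a receptor of the tumour necrosis factor family, was at 0.131 and 0.114 CPM in Ptip_KO, that is 10 and 8 reads, and at 0.0271 and 0.0634 CPM in WT, that is 2 and 5 reads. The levels of Eda2r, and of Perp outside WT replicate 2, are near the 3 reads (0.0380 to 0.0428 CPM) that a count of 0 allows, a limit that covers counting error only.

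The 2 called targets belong to the stress and repair group, and they moved in opposite directions. Sesn2, which encodes sestrin 2, a stress-induced inhibitor of mTORC1 signalling, was at 15.3 and 14.3 CPM in Ptip_KO and at 28.9 and 25.3 CPM in WT. Both Ptip_KO libraries were far below both WT libraries, with means of 14.8 ± 0.739 and 27.1 ± 2.51 CPM (SD, n = 2 each), a ratio of 0.545. The log2 fold change was −0.83 (SE 0.114; limma adjusted p = 0.0194), and the adjusted p was 0.0543 without Ptip_KO replicate 2. Sesn2 lies on chromosome 4 at 132492032 to 132510501 on the minus strand (mm10) and shares no exon with another gene. Its paralogue Sesn1 was higher instead, at 50.9 and 44.6 CPM in Ptip_KO and at 31.8 and 36.8 CPM in WT. That difference missed the threshold by limma (log2 fold change 0.47, adjusted p = 0.0812) and passed it by DESeq2 (adjusted p = 0.0142) and without WT replicate 2 (limma adjusted p = 0.0171), and the limma adjusted p ranged from 0.112 to 0.373 without each of the other libraries.

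Xpc encodes the damage sensor of global nucleotide excision repair, which recognises bulky lesions such as those of ultraviolet light. It was at 127 and 118 CPM in Ptip_KO and at 85.5 and 82.3 CPM in WT, with no overlap and a small spread within each group. Means were 123 ± 6.46 and 83.9 ± 2.21 CPM (SD, n = 2 each), a ratio of 1.46, with a log2 fold change of 0.54 (SE 0.0870; limma adjusted p = 0.0271). The summed red cell and B cell markers given above were also lower in both Ptip_KO libraries. The macrophage sums overlapped, but 5 of 7 tested macrophage genes fell by limma (list median −1.53). The part of these markers in the values of Sesn2 and Xpc was not tested. The Xpc call was lost without Ptip_KO replicate 1 (adjusted p = 0.153) and without Ptip_KO replicate 2 (0.0826), at log2 fold changes of 0.49 and 0.60. Xpc lies on chromosome 6 at 91489305 to 91515888 on the minus strand, and no annotated gene overlaps it. Ddb2, the other damage sensor of this pathway, was at 11.9 and 14.7 CPM in Ptip_KO and at 7.95 and 11.7 CPM in WT (limma adjusted p = 0.285; of the 4 fits that leave out 1 library it passed in 1, at 0.0260 without WT replicate 2). Its exons overlap those of Acp2 on the opposite strand, and whether counting used strand is not given in the sources used here.

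The remaining members of this group had higher means in Ptip_KO without passing the test. Polk, a polymerase that copies past damaged bases, was at 15.26 and 15.27 CPM in Ptip_KO and at 12.1 and 12.9 CPM in WT (limma adjusted p = 0.207). Rrm2b, the p53-induced subunit of ribonucleotide reductase, was at 18.5 and 16.6 CPM in Ptip_KO and at 14.2 and 14.5 CPM in WT (limma adjusted p = 0.209); the pseudogene Gm8616 matches its transcript at 96.1% of aligned positions, so its counts are uncertain. Zmat3, an RNA-binding protein, was low at 1.17 to 2.10 CPM. In all, 6 of the 7 genes of the group had a positive log2 fold change, and for all 7 the libraries of the groups did not overlap, beside 50.5% and 55.1% of all tested genes.

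Several stress-inducible targets differed between the libraries of one genotype. Cdkn1a, Plk2 and Pmaip1 were 1.74-fold, 1.83-fold and 1.91-fold higher in Ptip_KO replicate 2 than in Ptip_KO replicate 1. They were picked for this difference, and of the 22 tested targets 12 were higher and 10 lower in Ptip_KO replicate 2, with Sesn2 at 0.932 and Sesn1 at 0.876 times the level of replicate 1. The median absolute log2 difference between the Ptip_KO libraries was 0.75 over the 3 arrest genes, 0.16 over the tested targets, 0.08 over the repair genes and 0.11 over all tested genes. Between the WT libraries these medians were 0.40, 0.18, 0.09 and 0.16, and Cdkn1a was 1.64-fold higher in WT replicate 1 than in WT replicate 2. Early response and heat shock genes, chosen after their values were seen, stood highest or near highest in Ptip_KO replicate 2. Atf3, a stress-induced transcription factor, was at 24.3 and 79.4 CPM in Ptip_KO and at 44.3 and 24.2 CPM in WT, in the same order of libraries as Cdkn1a except that Ptip_KO replicate 1 and WT replicate 2 were nearly equal. Jun was at 280 and 580 CPM in Ptip_KO and at 332 and 272 CPM in WT. The heat shock gene Hspa1a was at 16.1 and 222 CPM in Ptip_KO and at 99.6 and 66.1 CPM in WT. The part of this difference between libraries in the values of Cdkn1a, Plk2 and Pmaip1 was not tested.

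**Figure D3:**
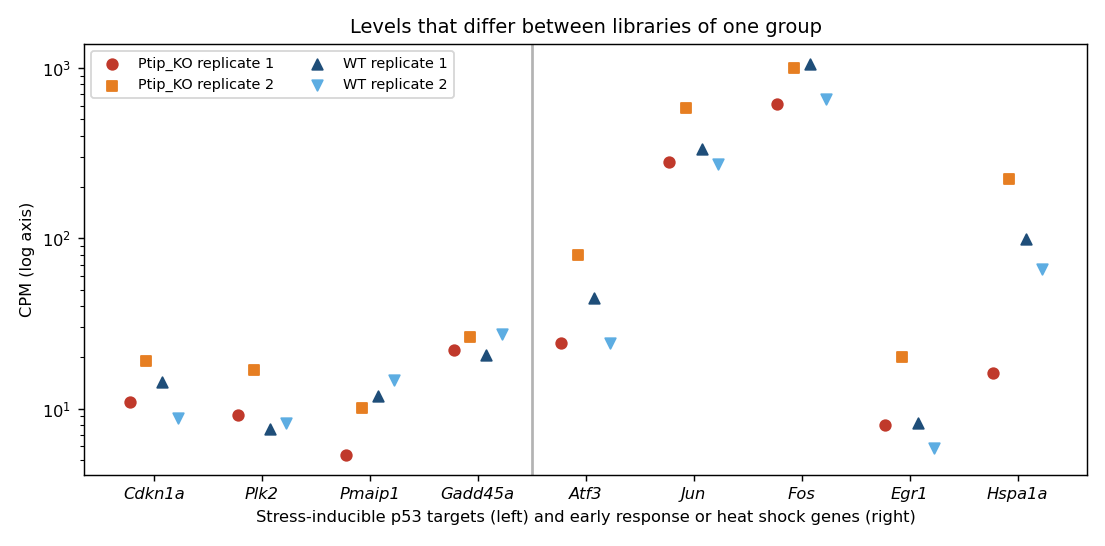
CPM (log axis) of 4 p53 targets picked after their values were seen (left of the line) and 5 early response or heat shock genes (right) in each library. Ptip_KO replicate 2 (orange) lies above Ptip_KO replicate 1 (red) for every gene shown, by 1.18-fold for Gadd45a and 1.74-fold for Cdkn1a.

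Among damage signalling genes, 0 of 11 passed by limma or edgeR. Atm, the kinase that responds to double-strand breaks, was at 68.2 and 73.2 CPM in Ptip_KO and at 62.6 and 78.3 CPM in WT. The WT libraries lay outside the Ptip_KO libraries on both sides (log2 fold change 0.01, interval −0.30 to 0.33). Atr, the kinase of stalled forks, Chek2, the ligase gene Rnf168, and Rad50 and Nbn of the MRN complex, which binds broken ends, also overlapped between groups, each with an absolute log2 fold change of at most 0.11. Topbp1, an activator of ATR, at 338 and 358 against 379 and 382 CPM, and Parp1, the sensor of strand breaks, at 301 and 298 against 321 and 322 CPM, were lower in both Ptip_KO libraries, with log2 fold changes of −0.13 and −0.10 that did not pass. Per kilobase of transcript these were also the highest of the 54 members, with mean levels of 72.9 and 83.0 CPM per kilobase in WT. Rnf8 was at 3.61 to 4.06 CPM, and it shares exons on the same strand with the annotated gene Gm28043, so its counts are uncertain. In all, 4 of the 54 members share exon bases with a gene on the same strand (Bax, Atr and Parp1 besides Rnf8). On the opposite strand, 15 members share exon bases with another gene, and the same limit applies to them if counting ignored strand.

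Chek1 and Mdc1 had the smallest p in this group. Chek1, which encodes the checkpoint kinase downstream of ATR, was at 21.4 and 23.9 CPM in Ptip_KO and at 32.8 and 30.9 CPM in WT. The groups were clearly apart, with a ratio of means of 0.712 and a log2 fold change of −0.47 (SE 0.105). The limma adjusted p was 0.0595 and that of edgeR 0.0627, while DESeq2 gave an adjusted p of 0.00522, and limma passed without WT replicate 2 (0.0306) and not without each of the other libraries (0.0732 to 0.313). Mdc1, the adaptor that binds phosphorylated H2AX, was at 61.7 and 66.9 CPM in Ptip_KO and at 78.8 and 78.4 CPM in WT (log2 fold change −0.29, limma adjusted p = 0.124).

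**Figure D4:**
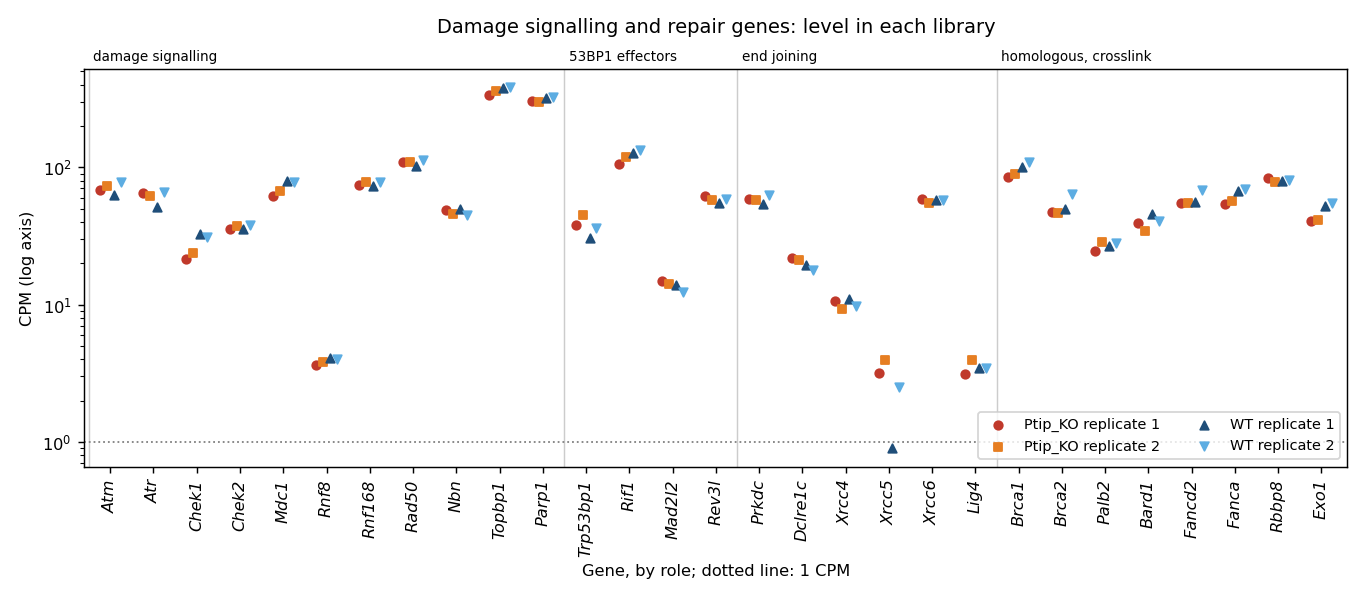
CPM (log axis) of the 29 damage signalling and repair genes in each of the 4 libraries, grouped by role; red and orange points are Ptip_KO and blue points WT. Points of both groups lie close together for most genes, while Chek1, Exo1 and Fanca are lower and Xrcc5 higher in both Ptip_KO libraries.

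The 4 genes grouped with 53BP1 were Trp53bp1, Rif1, Mad2l2 and Rev3l. Of these, 0 passed by limma, edgeR or DESeq2, and 0 with the limma p left unadjusted at 0.05. Trp53bp1, which encodes 53BP1, was at 37.6 and 44.6 CPM in Ptip_KO and at 30.6 and 35.9 CPM in WT. Both Ptip_KO libraries were above both WT libraries, with a log2 fold change of 0.30 whose interval ran from −0.03 to 0.62 (limma adjusted p = 0.240). The gene lies on chromosome 2 at 121193281 to 121271407, and its exons overlap Tubgcp4 on the opposite strand. Rif1, the effector that blocks resection downstream of 53BP1, was at 106 and 119 CPM in Ptip_KO and at 127 and 133 CPM in WT (log2 fold change −0.21, limma adjusted p = 0.262). Mad2l2, which encodes the REV7 subunit of shieldin and of polymerase zeta, was at 14.9 and 14.0 CPM in Ptip_KO and at 13.8 and 12.4 CPM in WT. Rev3l, the catalytic subunit of polymerase zeta, was at 61.8 and 57.6 CPM in Ptip_KO and at 55.2 and 59.0 CPM in WT. Their intervals, from −0.15 to 0.42 and from −0.16 to 0.29, lay inside 1.5-fold.

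Of 6 end joining genes, 0 passed by limma, edgeR or DESeq2, and Xrcc5 alone had an unadjusted limma p under 0.05. Prkdc, the DNA-dependent kinase, was at 58.5 and 57.9 CPM in Ptip_KO and at 54.2 and 62.7 CPM in WT. Dclre1c, which encodes the nuclease Artemis, was at 21.7 and 21.1 CPM in Ptip_KO and at 19.4 and 17.9 CPM in WT (limma adjusted p = 0.324). Xrcc4 and Lig4, which together seal the ends, were at 9.32 to 11.04 and 3.14 to 3.94 CPM with overlapping groups. Xrcc5 and Xrcc6 encode Ku80 and Ku70, which bind ends as a heterodimer. Xrcc6 was at 58.4 and 55.2 CPM in Ptip_KO and at 57.7 and 57.4 CPM in WT, but Xrcc5 was at only 3.17 and 3.97 CPM in Ptip_KO and at 0.895 and 2.51 CPM in WT. Per kilobase of transcript, the mean WT level was 17.5 CPM for Xrcc6 and 0.667 CPM for Xrcc5, and no near-identical copy or overlapping gene was found for Xrcc5. The Xrcc5 ratio of means was 2.09, but the WT libraries differed more than 2-fold from each other, and the log2 fold change of 0.82 had an interval of 0.05 to 1.59 (limma adjusted p = 0.189). It was 1.26 without WT replicate 2 (adjusted p = 0.00332) and 0.37 without WT replicate 1 (adjusted p = 0.314), by limma.

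Homologous and crosslink repair genes did not pass the test by limma or edgeR. An unadjusted limma p under 0.05 was found for 3 of 8, all lower in Ptip_KO, beside 1548 of all 12357 tested genes in that direction. The log2 fold change was negative for 7 of the 8, with a median of −0.25, beside 6113 of the 12357 genes. In 6 of the 8 both Ptip_KO libraries lay below both WT libraries, beside 3378 of the 12357 genes. Brca1, which promotes resection and recombination and opposes 53BP1, was at 85.2 and 89.0 CPM in Ptip_KO and at 99.8 and 110 CPM in WT (log2 fold change −0.26, interval −0.49 to −0.04, limma adjusted p = 0.159). Its partner Bard1 was at 39.0 and 34.4 against 46.0 and 40.7 CPM, and Brca2, a mediator of homologous recombination, at 47.1 and 46.1 against 49.3 and 63.6 CPM (limma adjusted p = 0.278 and 0.316; Brca2 passed in 1 of the 4 fits that leave out a library, at 0.0391 without WT replicate 1). Exo1, a nuclease of long-range resection, was at 40.9 and 41.1 CPM in Ptip_KO and at 52.2 and 54.7 CPM in WT. Its log2 fold change was −0.37 (SE 0.0862), with an adjusted p of 0.0654 by limma, 0.0699 by edgeR and 0.00820 by DESeq2. Fanca, of the Fanconi anaemia core complex, was at 53.8 and 57.1 CPM in Ptip_KO and at 67.1 and 69.6 CPM in WT (limma adjusted p = 0.112), and Fancd2, the protein that complex ubiquitinates, at 55.0 and 54.7 against 55.7 and 67.8 CPM. Rbbp8, which encodes CtIP, and the bridging factor Palb2 overlapped between groups.

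S phase genes are given beside these values. Of 20 S phase genes, 2 fell by limma, beside 6.29% of all tested genes called (3.86% lower). These were Cdc6, which licenses origins, with a log2 fold change of −0.67, and the cyclin gene Ccne2, with −0.57. Of the 20, 19 lay below 0, with a median of −0.29. DESeq2 called 1 higher and 13 lower, beside 15.4% of all tested genes. The summed S phase level was 4387 and 4633 CPM in Ptip_KO and at 5482 and 5410 CPM in WT. Among 20 mitosis genes the median was −0.12, and none passed with limma, edgeR or DESeq2, nor at 0.05 without adjustment (0 genes). The part of the S phase difference in the values of Chek1, Exo1, Brca1 and Fanca was not tested.

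**Figure D5:**
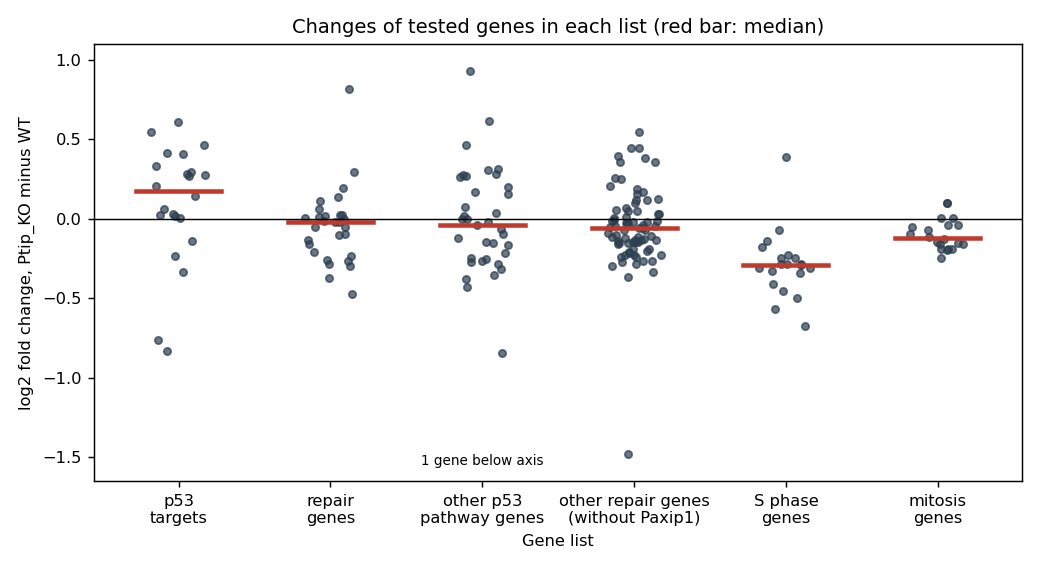
Log2 fold change (Ptip_KO minus WT) of each tested gene in 6 lists, 1 point per gene, with the list median as a red bar. Paxip1 is left out of the other repair genes. The p53 targets have a median of 0.18 and the repair genes −0.02, while the S phase genes lie mostly below 0 with a median of −0.29; 1 gene of the other p53 pathway list (Thbs1, −3.76) is below the axis.

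Among further genes of both pathways, few passed the test by limma. Of 37 other tested p53 pathway genes, 1 rose and 0 fell by limma (2.70%, beside 6.29% of all tested genes), with a median of −0.04. DESeq2 called 4 higher and 5 lower (24.3%, beside 15.4% of all tested genes). The gene that rose was Psrc1, a microtubule regulator known as a p53-responsive gene, at 31.4 and 29.8 CPM in Ptip_KO and at 18.1 and 21.3 CPM in WT (log2 fold change 0.62, limma adjusted p = 0.0422). Its adjusted p was 0.0541 by edgeR, 0.165 without Ptip_KO replicate 1 and 0.116 without Ptip_KO replicate 2. Of 76 other tested repair genes besides Paxip1, 0 were called by limma or edgeR. An unadjusted limma p under 0.05 was found for 16 (8 in each direction), or 21.1%, beside 23.8% of all tested genes. DESeq2 called 2 higher and 3 lower (6.58%, beside 15.4% of all tested genes). The median of the 76 was −0.06, and for 64 of them the 95% interval lay inside 1.5-fold, beside 64.5% of all tested genes.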

How the data were processed

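Poly(A) RNA gave 4 libraries (TruSeq Stranded mRNA, per the labels' protocols). The tools listed by the submitters' processing notes are edgeR 3.8.6, HTSeq 0.6.0 and TopHat2 2.0.10, with mm10 as build; their roles and the strand setting are not given in the sources used here. The deposited signal is CPM on the effective library size, per the file's name, so libraries do not sum to 1 fixed total. Columns were matched by the samples' descriptions (WT replicate 2 by its title is numbered 3 in its description and column). All values were whole multiples of 1 read (100% within 0.01 read), which gave recovered counts from the deposited values. Symbols were matched for 18249 of 18276 genes, and positions are from GENCODE M21 (GRCm38, the assembly of mm10).

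Genes reaching 1 CPM in 2 or more libraries were fitted with limma 3.58.1 (R 4.3.3) on log2(CPM + 1), trended variance, genotype as the only term, 2-sided, Benjamini-Hochberg over 12357 genes at 0.05. Fold changes on this scale understate those of low genes. Intervals are 95% and unadjusted. edgeR 4.0.16 (660 calls) and DESeq2 1.42.0 (1906 calls) were run on the recovered reads, and scaling, pseudocount, filter, variance prior, replicate block and leaving out each library were varied. Scripts were tested on simulated data. Near-identical copies were sought by BLAST (95% identity, 50% or more of the shorter transcript, 200 nucleotides or more). CPM per kilobase used the transcript with the longest coding sequence.

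Members given in full are those called, 7 preset genes (Trp53, Mdm2, Cdkn1a, Trp53bp1, Rif1, Brca1 and Atm) and up to 2 further with the smallest p in each role group; other members are given by range or by choice after their values were seen. Members and lists were chosen with earlier results of these data known.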

Additional observations from a re-analysis of the deposited data

How the results depend on the processing

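The call of Sesn2 and Xpc, 2 of the tested p53 targets, held under every pseudocount, filter, scaling and variance prior run and by edgeR, and both kept their direction without each library. The count of called targets was 4 by DESeq2 and ranged from 1 to 4 without each library in turn; without Ptip_KO replicate 2 the single call was Pmaip1, and without Ptip_KO replicate 1 the calls were Sesn2 and Plk2. The count of called repair genes, 0 as reported, was 2 by DESeq2 (Chek1 and Exo1), 1 with a robust variance prior (Chek1) and 0 to 2 without each library. Over all genes the 777 calls became 1906 by DESeq2 and 452 to 1620 without each library. With the replicate number as a block, 3 targets (Ccng1, Sesn2 and Xpc), 3 repair genes (Chek1, Exo1 and Fanca) and 1721 genes in all were called. Samples with the same number in their titles deviated together (r = 0.33 across 12357 genes). However, the column and description of WT replicate 2 carry the number 3. The labels give no shared animal or batch and there are 2 pairs, so whether these samples share more than a number cannot be told. Of the 25 members whose values were compared under each alternative, directions turned for 3, all uncalled. For the other members only the calls were collected, and turns of direction were not counted. Without each library, the log2 fold change of Cdkn1a ranged from −0.043 (without Ptip_KO replicate 2) to 0.71, that of Atm from −0.15 (without WT replicate 1; −0.04 without Ptip_KO replicate 2) to 0.17, and that of Gadd45a from −0.18 (without WT replicate 1; −0.10 without Ptip_KO replicate 2) to 0.22. Of 404 values of 27 genes (these 25, Paxip1 and Psrc1) under the alternatives, 376 kept direction and side of the threshold. The median of the p53 targets stayed between 0.10 and 0.23, and that of the repair genes between −0.08 and 0.03, positive only when rescaled to a common sum, which moved the median of all genes to 0.05. Where values changed, the cause was not tested. Depth limits the low members, such as Eda2r with 2 to 10 reads a library; counting error and spread between libraries were not separated.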
